A study of Danio rerio with 3 samples.

Results

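The red cell membrane and late erythroid genes described here are slc4a1a, sptb, ank1a, epb41b, cahz, tfr1a, klf1 and klf17. They were chosen by name: 9 symbols were listed and 8 were found in the symbol column of the deposited table, out of 25961 genes. The symbol rhag was not in that column and is treated apart from the 8 genes. RNA was sequenced from whole zebrafish embryos of the Tuebingen strain at 24 hours post fertilization, injected at the 1-cell stage with 3 ng of hnrnpaba morpholino, 6 ng of hnrnpaba morpholino, or 3 ng of a standard control morpholino. Morpholinos are antisense oligomers that pair with an RNA and keep it from being translated or spliced. hnrnpaba encodes an RNA-binding protein and is a counterpart of human HNRNPAB. Each group was 1 library from 30 embryos, which the labels describe as pooled over experiments. There was thus no replicate check of any difference and no p-value, and what follows compares these libraries, not the conditions. No single embryo and no sorted blood cell was measured, and the control received the mass of morpholino of the lower dose only. The name of the control column in the table carries neither morpholino nor dose, and the column was taken as the control morpholino library because the series has 1 control.

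Red blood cells of the young embryo arise in the intermediate cell mass and enter the circulation at about the stage sampled. Their membrane is held in shape by a mesh of spectrin, which is tied to the anion exchanger by ankyrin and to short actin filaments by the epb41 protein. As the cells mature they fill with hemoglobin, for which they take up iron through transferrin receptors, and they carry a cytosolic carbonic anhydrase for the transport of carbon dioxide. Kruppel-like factors are zinc finger proteins that bind the promoters of globin and other red cell genes. In zebrafish, mutants of slc4a1a, sptb, epb41b and tfr1a are known for anemia.

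Values are FPKM, that is, fragments scaled to gene model length and to the depth of the library. The library totals recovered from these values were 17748075 fragments at 3 ng, 13557636 at 6 ng and 14589056 in the control. A fold is 1 FPKM value over another, and the parentheses after it hold its 95% exact interval, for counting error only. Log2 differences were taken of FPKM + 1. The 16429 genes that averaged at least 1 FPKM over the libraries were compared, and those that differed 2-fold or more on that scale were counted as higher or lower. The transcript of hnrnpaba itself stood at 459 FPKM at 3 ng and 342 FPKM at 6 ng, against 442 FPKM in the control. The kind of morpholino is not given, and the level of an RNA is no check of a block of its translation. Because whole embryos were measured, more cells of a type and more RNA per cell cannot be told apart.

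All 8 genes were more abundant in both hnrnpaba morphant libraries than in the control, mostly by less than 2-fold. By any amount, 51.9% of all genes were above the control at 3 ng and 56% at 6 ng. At 3 ng the folds ran from 1.2 to 3.00 with a median of 1.83, and at 6 ng from 1.26 to 3.64 with a median of 1.47. The counting interval lay above 1 for 8 of 8 genes at either dose. Over all 16429 genes it lay above 1 for 32% at 3 ng and 38.5% at 6 ng. On the log2 scale 1 of the 8 genes, epb41b, was at least 2-fold higher at 3 ng and at 6 ng, and 0 were lower. The share of all genes counted as higher was 3.68% at 3 ng and 6.28% at 6 ng, and the share counted as lower was 2.2% and 4.53%. The median log2 difference of the 8 genes was 0.62 at 3 ng and 0.40 at 6 ng, beside 0.02 and 0.08 over all 16429 genes. All 8 had a mean above 1 FPKM, so none was left out by that limit.

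**Figure D1:**
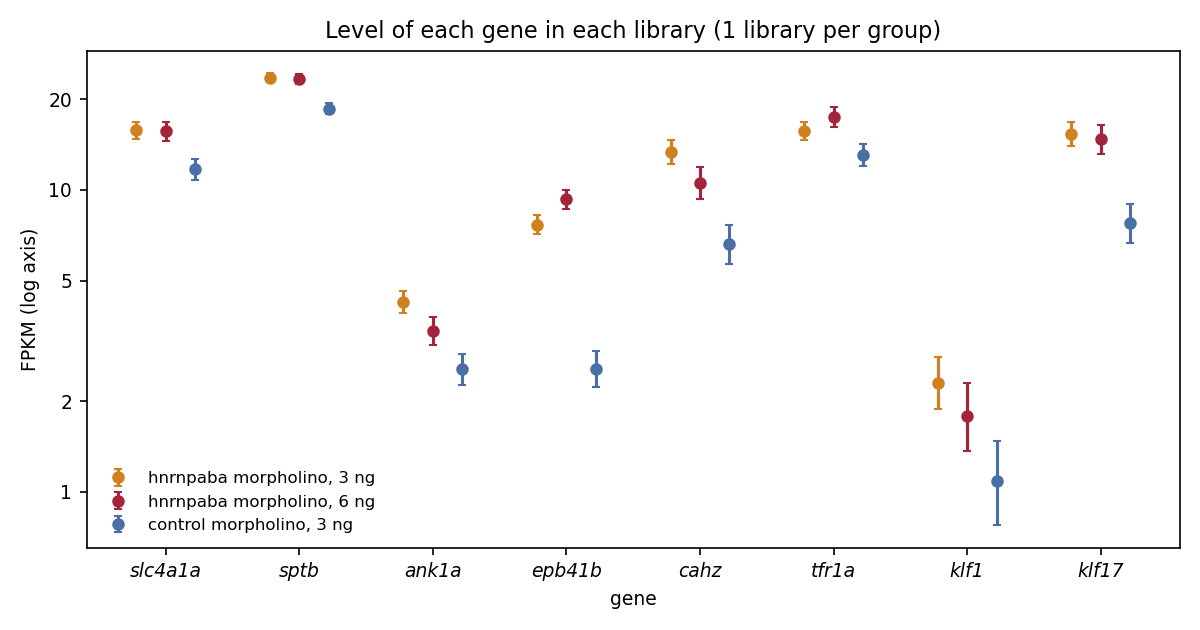
FPKM (log axis) of each of the 8 genes in the library given 3 ng of hnrnpaba morpholino, the library given 6 ng and the control library, with 1 point per library and bars for the 95% exact Poisson interval of the fragment count. Every control point lies below both morphant points of its gene, with the widest gap for epb41b (7.67 and 9.31 FPKM against 2.56 FPKM).

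slc4a1a (ENSDARG00000012881, chromosome 3, 20065861 to 20092124, minus strand) encodes the chloride-bicarbonate exchanger of the red cell membrane. It stood at 15.7 FPKM at 3 ng and 15.6 FPKM at 6 ng, against 11.7 FPKM in the control. Both morphant libraries were thus about equal for slc4a1a and above the control, with folds of 1.34 (1.21 to 1.49) and 1.33 (1.2 to 1.49). sptb (ENSDARG00000030490, chromosome 17, 38566717 to 38599022, plus strand) encodes erythroid beta-spectrin, the long filament of the membrane skeleton. The sptb values were 23.5 FPKM at 3 ng and 23.3 FPKM at 6 ng, against 18.6 FPKM in the control. sptb was the most abundant of the 8 genes in each library and, with 3185, 2416 and 2069 fragments, the most precisely counted. It was 1.27-fold above the control at 3 ng (1.2 to 1.34) and 1.26-fold at 6 ng (1.18 to 1.33), so the counting interval at neither dose reached 2.

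The gene epb41b (ENSDARG00000029019, chromosome 16, 26449615 to 26488169, plus strand) encodes the erythrocyte membrane protein that joins spectrin to actin. epb41b stood at 7.67 FPKM at 3 ng and 9.31 FPKM at 6 ng, against 2.56 FPKM in the control, from 751, 696 and 206 fragments. It was the gene farthest above the control among the 8, at 3.00-fold (2.57 to 3.51) with 3 ng and 3.64-fold (3.11 to 4.27) with 6 ng. The lower bound of the epb41b fold at 3 ng, 2.57, lay above the upper bounds of 6 of the other genes, all but klf1, whose upper bound was 3.13. At 6 ng its lower bound of 3.11 lay above the upper bounds of all 7 other genes, the highest of which was 2.51 for klf1. Of the 16429 genes, 346 had a larger log2 difference than epb41b at 3 ng and 358 at 6 ng.

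ank1a encodes the ankyrin that links spectrin to the anion exchanger, and its value depended on which gene model was read. The row with that symbol (ENSDARG00000059093, chromosome 5, 68899473 to 69041102, minus strand) stood at 4.27 FPKM at 3 ng and 3.41 FPKM at 6 ng, against 2.55 FPKM in the control. Both morphant values of ank1a were above the control, at 1.68-fold (1.45 to 1.94) and 1.34-fold (1.14 to 1.58). A second row without a symbol, also described as erythrocytic ankyrin 1a, lies within the same span on the same strand (ENSDARG00000092143, chromosome 5, 68900506 to 68927728). That overlapping row stood at 7.40 FPKM at 3 ng and 7.32 FPKM at 6 ng, against 7.41 FPKM in the control, so it was level in all 3 libraries. With the fragments of both rows summed, a sum taken after the values were seen, ank1a was 1.28-fold (1.16 to 1.42) above the control at 3 ng and 1.14-fold (1.02 to 1.26) at 6 ng. The rule by which reads were divided between both rows was not given in the sources used here. For the other 7 genes, 0 rows of the table overlapped their span.

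cahz (ENSDARG00000011166, chromosome 2, 29477383 to 29485408, minus strand) encodes the carbonic anhydrase of zebrafish red cells, which speeds the conversion of carbon dioxide to bicarbonate. It stood at 13.4 FPKM at 3 ng and 10.6 FPKM at 6 ng, against 6.61 FPKM in the control. The 3 ng library was the highest for cahz and the control the lowest, with folds of 2.03 (1.70 to 2.42) and 1.60 (1.32 to 1.94). tfr1a (ENSDARG00000101322, chromosome 2, 4849269 to 4874966, minus strand) encodes the transferrin receptor that brings iron into erythroid cells. The tfr1a values were 15.7 FPKM at 3 ng and 17.4 FPKM at 6 ng, against 13.1 FPKM in the control. tfr1a was the gene closest to the control at 3 ng, at 1.2-fold (1.07 to 1.34), and it was 1.33-fold (1.19 to 1.49) above the control at 6 ng.

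klf1 (ENSDARG00000017400, chromosome 6, 8129543 to 8140958, plus strand) encodes the erythroid Kruppel-like factor, which in mammals activates adult globin and red cell membrane genes. It was the least abundant of the 8 genes, at 2.30 FPKM at 3 ng and 1.78 FPKM at 6 ng, against 1.09 FPKM in the control. With 103, 61 and 40 fragments the klf1 folds were loosely bounded, at 2.12 (1.46 to 3.13) and 1.64 (1.08 to 2.51). klf17 (ENSDARG00000038792, chromosome 2, 33326522 to 33328688, plus strand) encodes a Kruppel-like factor that in zebrafish is active in primitive blood and in the hatching gland. klf17 stood at 15.3 FPKM at 3 ng and 14.8 FPKM at 6 ng, against 7.76 FPKM in the control. Its folds of 1.97 (1.66 to 2.36) and 1.90 (1.58 to 2.29) were close to each other and near 2 at either dose.

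The pseudocount of 1 FPKM bears on these counts because the genes are of moderate abundance. By the plain ratio of FPKM, 3 of the 8 genes (epb41b, klf1 and cahz) were at least 2-fold higher at 3 ng, and 1 (epb41b) at 6 ng. The same plain ratio was reached by 6.48% of all genes at 3 ng and 10.4% at 6 ng. At a limit of 1.5-fold on the scale of FPKM + 1, 4 of the 8 genes were higher at 3 ng and 3 at 6 ng, beside 11.6% and 18% of all genes. The counting intervals of cahz and klf1 at 3 ng began at 1.70 and 1.46, below 2.

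The order of levels within a library, read per kilobase, was nearly the same in all 3. In each, sptb was first and klf1 last, ank1a came just above klf1, and klf17 came just above cahz, though the control interval of the ratio of klf17 to cahz held 1 (0.952 to 1.45). In the control, epb41b and the row with the symbol ank1a stood side by side, with a ratio of their levels of 1.01 (0.836 to 1.21). At 3 ng the epb41b level was 1.80 times that of this ank1a row (1.61 to 2.01), and at 6 ng 2.73 times (2.39 to 3.11). The overlapping ank1a row stood at 7.41 FPKM in the control, above epb41b at 2.56 FPKM. At 3 ng and 6 ng that row stood at 7.40 and 7.32 FPKM, below epb41b at 7.67 and 9.31 FPKM. The place of ank1a in the order and its ratios thus depend on the row read. At 6 ng epb41b was within counting error of cahz, with a ratio of the cahz level to the epb41b level of 1.14 (0.984 to 1.31), whereas in the control cahz was 2.58 times epb41b (2.11 to 3.16). slc4a1a and tfr1a could not be ordered by counting error in the 3 ng library or the control, and tfr1a was 1.11 times slc4a1a at 6 ng (1.00 to 1.24).

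Between the doses of hnrnpaba morpholino the 8 genes differed little. At 6 ng, cahz stood at 0.789-fold its 3 ng level (0.677 to 0.919) and ank1a at 0.80-fold (0.698 to 0.916). epb41b was 1.21-fold higher at 6 ng than at 3 ng (1.09 to 1.35). The interval thus lay above 1 for 1 gene and below 1 for 2, beside 28.2% and 17.7% of all genes. By any amount 2 of the 8 were higher at 6 ng and 6 were lower, beside 57.5% and 42.5% of all genes. The intervals of the remaining 5 genes held 1, with klf1 at 0.775-fold (0.555 to 1.07), klf17 at 0.963-fold, slc4a1a and sptb each at 0.993-fold and tfr1a at 1.11-fold. Of the 8 genes, 0 were counted as 2-fold higher or lower, beside 1.11% and 0.992% of all genes, and 0 reached a plain ratio of 2, beside 2.83%. The median log2 difference of the 8 genes was -0.03, and that of all genes was 0.05.

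**Figure D2:**
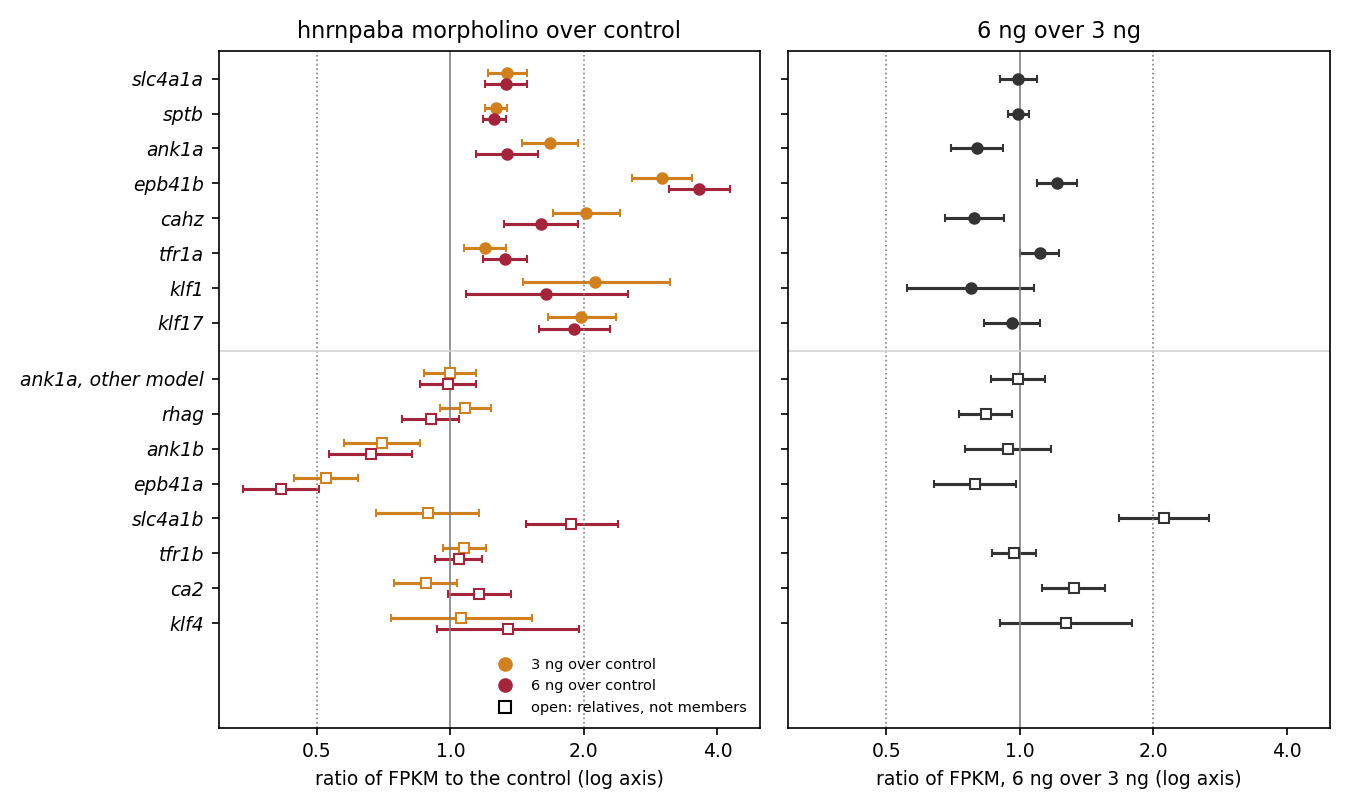
Ratio of FPKM (log axes) for the 8 genes (filled circles) and for rhag, the overlapping ank1a row and close relatives of the 8 (open squares). The left panel shows 3 ng and 6 ng over the control, the right panel 6 ng over 3 ng, bars are 95% exact counting intervals, and dotted lines mark 2-fold. In the left panel the filled circles all lie right of 1. epb41b lies beyond 2 at both doses, and klf1 and cahz lie beyond 2 at 3 ng. epb41a lies left of 1 at 0.524-fold and 0.415-fold.

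rhag, whose product forms the ammonia and gas channel complex of the red cell membrane, had a row without a symbol that the table describes as Rh associated glycoprotein (ENSDARG00000019253, chromosome 20, 14014813 to 14054083, minus strand). That row stood at 7.98 FPKM at 3 ng and 6.68 FPKM at 6 ng, against 7.39 FPKM in the control. The rhag values lay on either side of the control, with folds of 1.08 (0.946 to 1.23) and 0.903 (0.779 to 1.05) whose intervals hold 1. At 6 ng the lower bounds of the 8 genes, the smallest being 1.08 for klf1, lay above the upper bound of rhag, but with both ank1a rows summed that of ank1a (1.02) did not. At 3 ng the interval of rhag overlapped those of tfr1a, sptb and slc4a1a. Among other Rh genes, rhd stood at 2.83 FPKM at 3 ng and 1.39 FPKM at 6 ng, against 1.69 FPKM in the control. The epithelial ammonia transporter genes rhbg (1.00 and 1.09 against 1.06 FPKM) and rhcgb (at most 2 fragments per library) were low in all libraries.

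Paralogs and relatives of the membrane genes were mostly below the control: of 17 measured spectrin, ankyrin, epb41-like and slc4 relatives, 5 were above it by any amount at 3 ng and 6 at 6 ng. epb41a, the paralog of epb41b, stood at 4.28 FPKM at 3 ng and 3.39 FPKM at 6 ng, against 8.17 FPKM in the control. epb41a was thus lower in both morphant libraries, at 0.524-fold (0.444 to 0.619) and 0.415-fold (0.340 to 0.505), in the direction opposite to epb41b. On the log2 scale its difference was -0.79 at 3 ng and -1.06 at 6 ng, so it was past the 2-fold limit at 6 ng. epb41a and ank1b were found by description and are not among the 17 relatives counted. ank1b, the paralog of ank1a, was at 0.702-fold (0.576 to 0.854) and 0.662-fold (0.532 to 0.821) of its control level. The tfr1a paralog tfr1b stood at 13.2 FPKM at 3 ng and 12.8 FPKM at 6 ng, against 12.3 FPKM in the control, and both of its intervals held 1.

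slc4a1b, a second anion exchanger gene, was at 0.888-fold the control (0.681 to 1.16) at 3 ng and 1.87-fold (1.48 to 2.39) at 6 ng. The list of spectrin, ankyrin, epb41-like and slc4 relatives had 24 genes in the table, of which 17 averaged at least 1 FPKM. Of these 17 relatives, 0 were counted as higher at either dose, 0 were lower at 3 ng and 1, the ankyrin gene ank2b, was lower at 6 ng (3.68 against 9.51 FPKM). Their median log2 difference was -0.28 at 3 ng and -0.10 at 6 ng. The counting interval lay above 1 for 3 of them and below 1 for 9 at 3 ng, and for 4 and 8 at 6 ng. By the plain ratio of FPKM, epb41l4b was 1.38-fold the control at 3 ng (1.08 to 1.77) and 2.13-fold at 6 ng (1.69 to 2.71). A plain ratio of 2 was reached by 10.4% of all genes at 6 ng. Of 17 other red cell membrane and skeleton genes that averaged at least 1 FPKM, 1 was counted as higher and 1 as lower at either dose, with medians of -0.05 and 0.04. The higher gene was cd59, which encodes an inhibitor of complement (7.58 and 9.48 against 1.98 FPKM). The lower gene was the glucose transporter gene slc2a1a at 3 ng (8.14 against 24.6 FPKM) and the water channel gene aqp1a.1 at 6 ng (8.48 against 31.0 FPKM).

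Of 7 other carbonic anhydrases, 2 were above the control by any amount at 3 ng and 5 at 6 ng, and of 15 other Kruppel-like factors 4 at 3 ng and 10 at 6 ng. ca2, a cytosolic carbonic anhydrase like cahz, stood at 11.8 FPKM at 3 ng and 15.7 FPKM at 6 ng, against 13.5 FPKM in the control. By the 2-fold limit 2 of the 7 carbonic anhydrases (ca8 and ca15b) were counted as higher at 3 ng, 1 (ca8) at 6 ng and 0 as lower. ca8, a relative without the enzyme activity in mammals, stood at 8.55 and 10.01 FPKM against 3.72 FPKM, and ca15b rested on 4 control fragments. Among the 15 Kruppel-like factors, 0 were counted as higher at 3 ng and 1, klf5l, at 6 ng (14.6 against 6.42 FPKM), with 0 lower. The closest relatives named klf4 and klf2a had folds of 1.06 (0.735 to 1.53) and 0.935 (0.752 to 1.16) at 3 ng, and the median of the 15 factors was -0.08 at 3 ng and 0.18 at 6 ng.

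The 8 genes were next set beside other genes of the red cell program in the same libraries. All comparisons with the control share that library, so the values are given side by side. Of the 10 embryonic globin genes, 6 were counted as higher at 3 ng and 7 at 6 ng, with medians of 1.33 and 1.1. The largest globin differences were those of hbbe1.3 (224 and 174 against 60.1 FPKM), hbae1.1 (29.7 and 37.5 against 9.31 FPKM), hbae5 (3.93 and 5.08 against 0.978 FPKM) and hbbe2 (33.5 and 19.1 against 10.6 FPKM). Some globin genes are near-identical tandem copies whose reads cannot be divided with certainty. Of 17 heme synthesis genes, 4 were counted as higher at 3 ng and 6 at 6 ng, with 0 lower and medians of 0.67 and 0.70. Among them alas2, the erythroid enzyme that opens the pathway, stood at 30.9 and 32.2 FPKM against 13.0 FPKM, and fech, which inserts the iron, at 8.98 and 11.6 FPKM against 3.83 FPKM. The other heme genes with the largest differences were hmbsb (27.3 and 25.0 against 10.7 FPKM) and ppox (7.22 and 8.61 against 3.2 FPKM).

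Erythroid and blood progenitor transcription factors had 3 of 18 genes counted as higher at 3 ng and 6 at 6 ng, with 0 lower and medians of 0.27 and 0.43. gata1a, the master regulator of red cells, stood at 4.78 FPKM at 3 ng and 4.12 FPKM at 6 ng, against 1.41 FPKM in the control. For gata1a, folds of 3.40 (2.43 to 4.87) and 2.93 (2.05 to 4.26) have intervals that overlap those of epb41b. The progenitor factors lmo2 (16.2 and 22.6 against 8.01 FPKM), tal1 (11.7 and 14.9 against 5.71 FPKM) and gfi1b (3.92 and 5.08 against 1.59 FPKM) were counted as higher at 6 ng. In the iron list 1 of 17 genes was higher at 3 ng and 3 at 6 ng, with medians of 0.41 at both doses. These were the ferritin-like genes fthl28 (13.7 and 16.6 against 4.09 FPKM) and, at 6 ng, fthl27 (247 against 114 FPKM) and the iron reductase gene steap3 (3.05 against 1.02 FPKM).

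**Figure D3:**
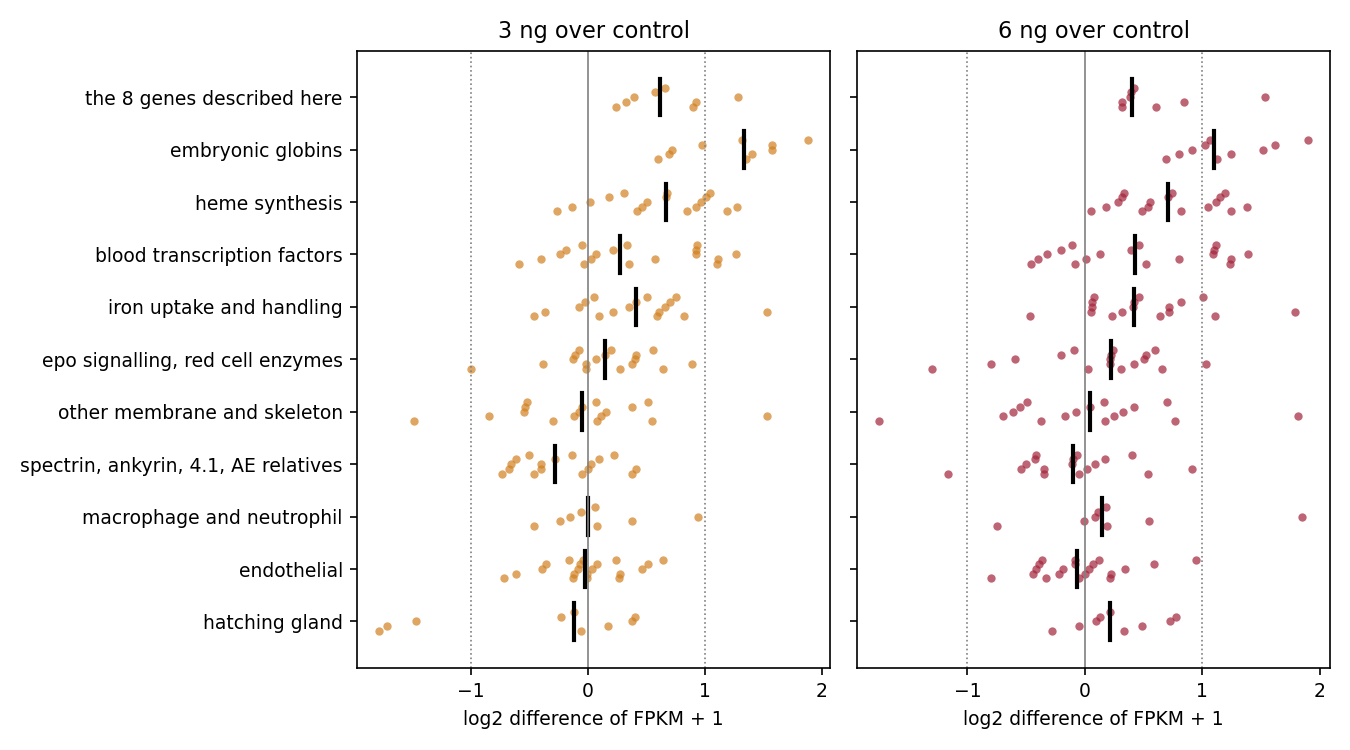
Log2 difference of FPKM + 1 from the control for single genes (points) that averaged at least 1 FPKM, by list, with the list median as a black bar and dotted lines at 2-fold. The left panel shows the 3 ng library and the right panel the 6 ng library. The 8 genes (medians 0.62 and 0.40) lie between embryonic globins (1.33 and 1.1) and the endothelial, macrophage and neutrophil lists (medians from -0.06 to 0.14). At 3 ng heme synthesis (0.67), iron handling (0.41) and blood transcription factors (0.27) lie nearest to them. At 6 ng iron handling (0.41) and blood transcription factors (0.43) lie nearest. Heme synthesis at 6 ng (0.70) is farther from the 8 genes than erythropoietin signalling and red cell enzymes (0.23) or the hatching gland list (0.22). Other membrane and skeleton genes are at -0.05 and 0.04.

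Relative to globin RNA, most of the 8 genes were less abundant in the morphant libraries than in the control. Summed embryonic globin was itself 2.42-fold the control at 3 ng and 2.24-fold at 6 ng. Any gene with a smaller fold therefore falls below the control on this measure. slc4a1a amounted to 7.04 FPKM per 1000 FPKM of summed embryonic globin at 3 ng and 7.54 at 6 ng, against 12.7 in the control. For sptb these values were 10.5 and 11.3 against 20.1, and for tfr1a 7.02 and 8.40 against 14.2. These 3 genes stood lowest against the control on this measure at 3 ng. In fragments, the ratio to globin was 0.549 of the control for slc4a1a at 3 ng (0.494 to 0.610), 0.517 for sptb (0.486 to 0.549) and 0.489 for tfr1a (0.437 to 0.548). At 6 ng the ratios were 0.596 (0.533 to 0.666) for slc4a1a, 0.561 (0.525 to 0.598) for sptb and 0.593 (0.528 to 0.666) for tfr1a.

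epb41b was above the control on this measure, at 1.22 (1.04 to 1.44) at 3 ng and 1.62 (1.38 to 1.91) at 6 ng. Relative to gata1a, epb41b was at 0.881 of the control at 3 ng and 1.24 at 6 ng, and relative to alas2 at 1.26 and 1.47, with no interval computed. The gata1a values rested on 178 fragments at 3 ng, 117 at 6 ng and 43 in the control. The fold intervals of gata1a overlap those of epb41b, and the side of epb41b relative to gata1a was not tested. The other 7 genes were below the control against either gene, from 0.352 to 0.888 at 3 ng and from 0.429 to 0.767 at 6 ng. No interval was computed for these ratios either. At 3 ng the fold interval of klf1 (1.46 to 3.13) overlapped those of gata1a (2.43 to 4.87) and alas2 (2.16 to 2.63). Those of cahz (1.70 to 2.42) and klf17 (1.66 to 2.36) overlapped that of alas2. At 6 ng klf1 (1.08 to 2.51) and klf17 (1.58 to 2.29) overlapped gata1a (2.05 to 4.26) and alas2 (2.24 to 2.74). Overlap of the fold intervals does not by itself decide the side of a gene, and that side was not tested for these genes. Both reference genes, gata1a (3.40-fold and 2.93-fold) and alas2 (2.38-fold and 2.48-fold), were themselves above the control, and all 7 genes had smaller folds. Against globin again, cahz (0.827 and 0.714) and ank1a (0.684 and 0.598) were below 1 with intervals clear of it at both doses. klf17 was clear of 1 at 3 ng (0.806, 0.676 to 0.964) and not at 6 ng (0.848, 0.704 to 1.02), and the klf1 interval held 1 at both doses. In all, 6 of the 8 ratios to globin were below the control at 3 ng and 5 at 6 ng beyond counting error, and 1 was above it at each dose. Over all genes, 6.48% at 3 ng and 10.4% at 6 ng reached even a plain ratio of 2 to the control. Summed globin was more than 2-fold above the control at both doses, so most genes fall below the control on this measure. How many do so beyond counting error was not computed.

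**Figure D4:**
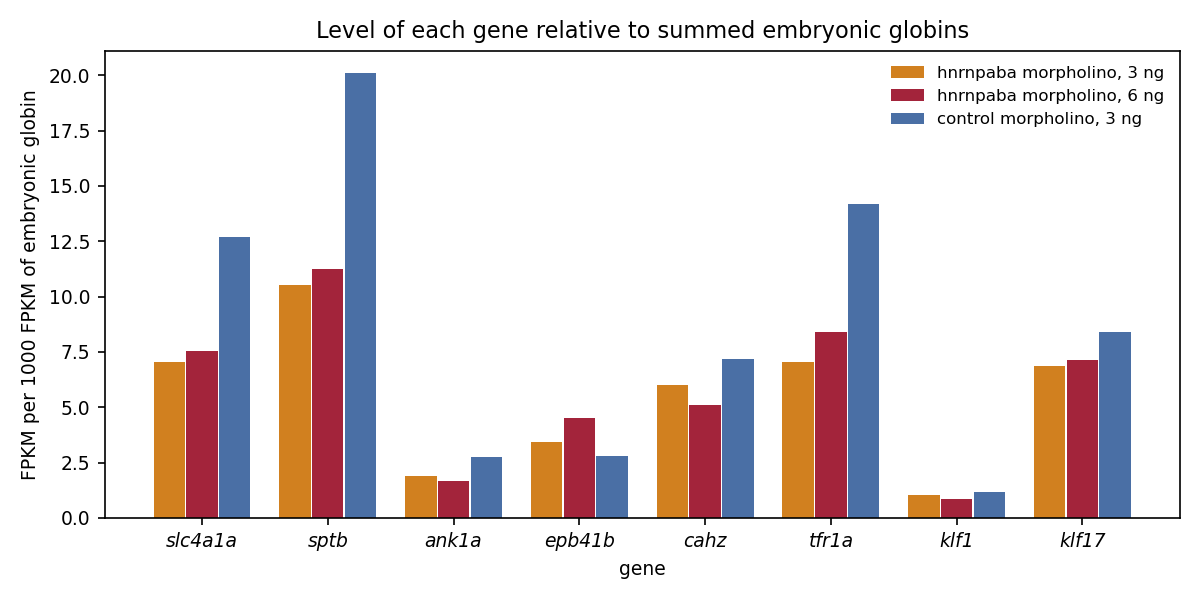
FPKM of each of the 8 genes per 1000 FPKM of the 10 embryonic globin genes summed, in the 3 ng, 6 ng and control libraries (bars start at 0). The control bar is the tallest of its gene for 7 genes, and for epb41b it is the shortest (3.43 and 4.49 against 2.77).

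Markers of other cell types were read in the same libraries. The summed level of 6 erythroid markers (hbbe3, hbae1.1, alas2, gata1a, slc4a1a and cahz) was 995 FPKM at 3 ng and 934 FPKM at 6 ng, against 395 FPKM in the control, with all 6 above the control at both doses. Most of that sum was the globin gene hbbe3 (901 and 834 against 353 FPKM). The markers slc4a1a and cahz are themselves among the 8 genes, so the sum is not separate from them. By any amount, 51.9% of all genes were above the control at 3 ng and 56% at 6 ng. Whole erythroid lists differed from each other: 10 of 10 embryonic globin genes were above the control at both doses. Of 17 heme synthesis genes, 15 were above it at 3 ng and 17 at 6 ng. For blood transcription factors it was 12 of 18 at each dose, and for other membrane and skeleton genes 8 and 9 of 17. The sum of 5 macrophage and neutrophil markers (spi1b, mpx, lyz, lcp1 and mfap4) was 6.08 and 6.15 FPKM against 5.45 FPKM, with 3 of 5 above the control at 3 ng and 5 of 5 at 6 ng. At 3 ng mpx was below the control (0.448-fold, 0.202 to 0.946) and the other intervals held 1. At 6 ng all 5 counting intervals held 1, and lyz rested on 1 fragment in the 6 ng library and 1 in the control. Of the 8 genes of the whole macrophage and neutrophil list that averaged at least 1 FPKM, 4 were above the control at 3 ng and 6 at 6 ng. At 6 ng the interval lay above 1 for 2 of them, cebpb (3.84-fold, 3.32 to 4.45) and cyba (1.56-fold, 1.13 to 2.18). It lay below 1 for 1, csf1ra (0.317-fold, 0.190 to 0.511). The sum of 3 endothelial markers (kdrl, cdh5 and fli1a) was 22.7 and 21.5 FPKM against 32.4 FPKM, with 0 of 3 above the control. The whole endothelial list did not share this, with 8 of 20 genes above the control at each dose and medians of -0.03 and -0.06. Among those above were sox7 (1.83-fold and 2.37-fold), stab2 (1.40-fold and 1.54-fold) and tek (1.55-fold and 1.34-fold). The sum of 4 ionocyte and pronephros markers (foxi3a, atp1b1b, cdh17 and pax2a) was 57.4 and 79.7 FPKM against 64.2 FPKM, with 2 of 4 above the control at either dose. Of all these markers, 0 were at 0 in any library. The part of these markers' cells in the values of the 8 genes was not tested.

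Because klf17 is also active in the hatching gland, it was set beside markers of that gland. The 4 markers he1.1, he1.2, ctslb and cd63 summed to 163 FPKM at 3 ng and 580 FPKM at 6 ng, against 410 FPKM in the control, with 0 of 4 above the control at 3 ng and 3 of 4 at 6 ng. The hatching enzyme genes he1.1 (70.8 against 197 FPKM) and he1.2 (29.7 against 105 FPKM) and the protease gene ctslb (15.1 against 52.1 FPKM) were counted as lower at 3 ng, where klf17 stood at 15.3 against 7.76 FPKM. At 6 ng he1.1 was at 338 FPKM and ctslb at 73.1 FPKM, both above the control, and klf17 was at 14.8 FPKM. Other genes of the hatching gland list went both ways at 3 ng. prdm1a (1.35-fold, 1.18 to 1.55) and xbp1 (1.3-fold, 1.2 to 1.41) were above the control, and foxa3 was at 1.15-fold (0.971 to 1.36). cd63 was below the control at 0.851-fold (0.781 to 0.927). agr2 (0.911-fold, 0.750 to 1.11) and tfap2a (0.960-fold, 0.900 to 1.02) were slightly below it, with intervals that held 1. Of the 9 genes of that list that averaged at least 1 FPKM, 3 were above the control at 3 ng and 7 at 6 ng.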

How the data were processed

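Expression was read from a table deposited by the authors, which gives FPKM (fragments scaled to gene model length and library total) for 25961 genes in 3 libraries. Per the labels' protocols, total RNA was extracted with Trizol, sequenced on a BGISEQ-500 and mapped to a zebrafish reference genome. The strand setting, aligner, counter, annotation and genome build is each not given in the sources used here, and coordinates are those of the table. In all 0 value columns were unused.

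Fragment counts were recovered as whole multiples of the value of 1 fragment, with the shortest gene model length that made all 3 libraries whole within at most 0.05 fragments. This gave counts for 25956 genes, summing to 95.5% of the library totals. A length too short by a common factor would make counts too low and intervals too wide. The recovery and the 2-fold rule were tested on simulated data. Intervals of folds are exact (Clopper-Pearson, conditional on both counts), and those of ratios to globin are exact conditional odds ratios (scipy 1.17.1). All of them cover counting error only.

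Since groups were single libraries, no model or test was run. Gene-level values may share reads between paralogs or overlapping genes. The 14 comparison lists held 258 symbols, of which 207 were matched by the table's symbol, 31 by a table of gene names and 20 not at all. ank1b, epb41a and the second ank1a row were found by the table's description, and rhag by the table of gene names. The genes and lists were chosen with earlier results of these data known. In each list the named genes are those counted in any comparison, up to the 4 with the largest difference from the control, or up to 2 with the highest mean where none was counted, plus close relatives of the 8 genes. Alternatives were other pseudocounts, rescaled libraries, other limits on low values and a 1.5-fold limit.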

Additional observations from a re-analysis of the deposited data

Results flagged for a closer look

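Of the genes named by rule in the lists, 5 were below the control at one dose and above it at the other with both counting intervals clear of 1. The difference between doses in each was not tested, since each dose had 1 library and both share the control. The log2 differences from the control at 3 ng and 6 ng were -1.47 and 0.77 for the hatching enzyme gene he1.1, -1.79 and 0.13 for he1.2, and -1.72 and 0.48 for ctslb. For the glucose transporter gene slc2a1a they were -1.49 and 0.25, and for gcm2, a transcription factor of ionocytes, -0.84 and 0.59. The 8 red cell genes did not show this pattern: the counting intervals of all 8 lay above 1 at both doses.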

How the results depend on the processing

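No paired analysis was possible because each group had 1 library and the labels carry no replicate numbers. Leaving out a library would leave no comparison and was not run. The 8 genes stayed above the control in all 32 recomputed values at 3 ng and all 32 at 6 ng, under pseudocounts of 0.1 and 5 FPKM and under both rescalings (equal sums and median ratio). In 6 ng against 3 ng, 2 of 32 values had the other sign.

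The number counted as higher depended on the pseudocount and the limit. At 3 ng it was 3 of 8 with 0.1 FPKM, 0 with 5 FPKM and 4 at 1.5-fold, where 11.6% of all genes were counted. At 6 ng it was 0 with 5 FPKM and 3 at 1.5-fold, where 18% of all genes were counted. The median at 3 ng was 0.85 with 0.1 FPKM and 0.30 with 5 FPKM. A smaller pseudocount enlarges the differences of low genes by construction.

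Counts over all genes moved by more than 1.5 times as well. With the limit of a mean of 5 FPKM, the genes compared also fell from 16429 to 9688, so those counts are of a smaller set. At 3 ng the numbers higher and lower were 604 and 361, against 1004 and 750 with 0.1 FPKM, 137 and 79 with 5 FPKM, 278 and 171 among genes that averaged at least 5 FPKM, and 1904 and 1559 at 1.5-fold. At 6 ng they were 1032 and 745, against 1615 and 1171, 313 and 215, 540 and 391, and 2961 and 2011 in the same order. For 6 ng against 3 ng they were 183 and 163, against 426 and 365, 33 and 20, 62 and 75, and 849 and 622. Neither rescaling moved a count of the 8 genes. Summing both ank1a rows, chosen after seeing the data, gave plain folds of 1.28 at 3 ng and 1.14 at 6 ng. Those of the row with the symbol were 1.68 and 1.34. The log2 of the summed folds, without a pseudocount, was 0.36 at 3 ng and 0.18 at 6 ng. These 2 values are thus not on the scale of FPKM + 1. Depth limits klf1 most, with 40 control fragments.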

Other observations

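Red cell enzymes and erythropoietin signalling genes went both ways. Of 17 measured genes, 0 were counted as higher and 1 as lower at 3 ng, and 1 as higher and 1 as lower at 6 ng, with medians of 0.15 and 0.23. The lower gene was pklr, which encodes the pyruvate kinase of liver and red cells, at 5.08 FPKM at 3 ng and 3.92 FPKM at 6 ng, against 11.2 FPKM in the control. The higher gene was cox4i2, a cytochrome oxidase subunit gene (3.52 FPKM at 6 ng against 1.21 FPKM in the control).

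In other lineages, 0 of 20 measured endothelial genes were counted as higher or lower at either dose. The most abundant of them were stab2 (19.0 and 20.8 against 13.5 FPKM) and cldn5b (16.3 and 11.6 against 15.9 FPKM). Among 8 measured macrophage and neutrophil genes, 0 were counted at 3 ng and 1 at 6 ng, the transcription factor gene cebpb (41.5 against 10.8 FPKM), which is not specific to blood cells. Of 15 ionocyte and pronephros genes, 1 was counted as higher at 6 ng, the sodium-chloride cotransporter gene slc12a3 (18.1 against 8.15 FPKM).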
